A study of Sus scrofa with 3 samples.

Results

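The microRNAs (miRNAs) miR-199a, miR-199b and miR-214 were described in small RNA libraries of pig liver at 3 stages. They were chosen by name, as all table entries of hairpins named mir-199a, mir-199b or mir-214 once species prefix and copy number were removed. They are 3 of 677 hairpin names found in the libraries, and all 3 were read in each library, which held 536 names at E90, 497 at P30d and 406 at P7y. Liver was taken from male pigs of the Jinhua breed at embryonic day 90 (E90), postnatal day 30 (P30d) and postnatal year 7 (P7y), with no treatment or genetic change named in the labels. The labels name 3 pigs per stage but give 1 library per stage, and do not say whether RNA was pooled. No difference below therefore has a replicate check, no p-value is given, and each comparison sets libraries, not conditions, against each other.

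A miRNA is cut from a hairpin whose 5′ and 3′ arms (5p and 3p) can each give a mature strand. Bases 2 to 8 of that strand, the seed, lead in pairing with messenger RNAs. The 3 miRNAs are known from mesenchymal cells, among them the stellate cells of the liver, which store vitamin A and turn into matrix-producing cells in fibrosis. The miR-199a and miR-214 hairpins that lie together are made from DNM3OS, a long noncoding RNA transcribed antisense to the dynamin gene DNM3. The other miR-199 hairpins lie antisense within other dynamin genes. Published work links miR-199a-5p to caveolin-1 in lung fibrosis.

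The leading read of each arm, the one with the most copies, was the same in all 3 libraries. It is shown 5′ to 3′ with the seed in capitals, because the sequences decide which members can be told apart.
miR-199a-5p: cCCAGTGTtcagactacctgttc
miR-199b-5p: cCCAGTGTttagactatctgttc
miR-199a-3p and miR-199b-3p: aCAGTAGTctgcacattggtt
miR-214-5p: tGCCTGTCtacacttgctgtgc
miR-214-3p: aCAGCAGGcacagacaggcagt

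The 6 member arms gave 5 distinct sequences and 4 seeds. miR-199a-5p and miR-199b-5p share the seed CCAGTGT and differ outside it by C10T and C17T, counted from the 5′ end and written with the miR-199a base first. The 3p strand is identical for both miR-199 members. Its seed differs from that of miR-214-3p by T5C and T8G, with the miR-199 base first. No other name in the tables had a known mature form with the seed of a member arm. Among leading reads, 1 entry of miR-199c, a cattle name, began 1 base later than its known form and so carried the miR-199-3p seed, with 14 reads at E90 and 20.5 at P30d. The leading reads of miR-199a-5p and miR-214-5p had the length of the known form, 23 and 22 nt. The miR-199-3p read was 21 nt against a known 22 nt, miR-199b-5p was 23 nt against 22 nt, and miR-214-3p was 22 nt against 21 nt. The tables name a 5p strand of miR-214 from human only.

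The members come from 4 loci, printed below because the 3p arm is the same in all 3 miR-199 hairpins. Coordinates are those of the tables, on Sscrofa10.2 and the minus strand, with the arms in capitals.
ssc-mir-199a-1, chr9:126105239-126105348: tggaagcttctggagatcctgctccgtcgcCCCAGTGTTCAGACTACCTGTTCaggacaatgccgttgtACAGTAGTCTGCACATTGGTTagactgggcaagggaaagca
ssc-mir-199a-2, chr2:69991779-69991858: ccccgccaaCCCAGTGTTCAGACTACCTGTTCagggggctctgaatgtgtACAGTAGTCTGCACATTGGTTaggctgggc
ssc-mir-199b, chr1:302681808-302681916: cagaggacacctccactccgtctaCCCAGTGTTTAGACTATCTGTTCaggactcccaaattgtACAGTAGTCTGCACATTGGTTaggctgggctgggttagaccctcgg
ssc-mir-214, chr9:126099459-126099570: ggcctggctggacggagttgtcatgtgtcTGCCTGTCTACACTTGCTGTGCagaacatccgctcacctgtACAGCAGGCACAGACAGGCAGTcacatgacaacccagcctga

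In RefSeq's Sscrofa11.1 annotation, ssc-mir-199a-1 and ssc-mir-214 lie within the span of DNM3, ssc-mir-199a-2 within DNM2 and ssc-mir-199b within DNM1. Their place relative to exons was not analysed here. The hairpins of miR-199a-1 and miR-214 are 5668 bases apart. The copy numbers of pig and human are exchanged, so that the pig hairpin beside miR-214 corresponds to human mir-199a-2. The mature strands of both miR-199a hairpins are identical in both arms, so reads cannot be divided between the locus beside miR-214 and the locus on chromosome 2. The strand opposite miR-214, which holds miR-3120, gave 1 read at E90, 1 read at P30d and no entry at P7y.

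Total depth was 9406525 reads for E90, 3775157 for P30d and 9935073 for P7y. Hairpins with a known miRNA name took 98.3%, 96.0% and 99.9% of them. Levels are counts per 1000000 of these named reads (CPM), and a count of 0 would allow up to 0.325, 0.828 and 0.302 CPM at E90, P30d and P7y. Intervals are 95% and exact, and cover counting error only, since reads copied by PCR are not independent molecules. As a check of the tissue, the hepatocyte miRNAs miR-122, miR-192, miR-194 and miR-148a summed to 31.4%, 36.7% and 28.9% of named reads. Only the plain name miR-194 was counted in this sum. Entries named miR-194a and miR-194b, which also held many reads, were left out of it. The arms behind this sum moved apart and are given below. In bulk RNA, fewer cells of a type and less RNA per cell cannot be told apart, and no single-cell measure was there to place the members in mesenchymal cells.

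All member arms together held 67372 reads, 0.729% of named reads, at E90. They held 174496 reads, 4.82%, at P30d and 62478 reads, 0.630%, at P7y. The P30d library was thus the highest, although it was the shallowest, and the E90 and P7y libraries were near each other. One strand held most of the P30d reads: miR-199a-5p was 45.9% of all member reads at E90, against 83.5% at P30d and 40.3% at P7y.

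miR-199a-5p was the most abundant of the 6 member arms at each stage, although at P7y the 3p strand of miR-199a and miR-199b, when summed, was above it. It had 30954 reads at E90, or 3349 CPM (3312 to 3386), 145689 reads at P30d, or 40212 CPM (40010.3 to 40415), and 25183 reads at P7y, or 2539 CPM (2507 to 2570). Ranked among all mature miRNAs it stood 36th at E90, 6th at P30d and 34th at P7y. The P30d level was 12.0-fold that of E90 (log2 ratio 3.59, 3.57 to 3.60) and 15.8-fold that of P7y (log2 ratio, P7y over P30d, -3.99, -4.00 to -3.97). Among the 328 mature miRNAs that averaged 10 CPM or more, the first ratio was the 24th from the top and the second the 34th from the bottom. From E90 to P7y the log2 ratio was -0.40.

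miR-199b-5p, which shares the seed of miR-199a-5p, was far less abundant and less variable. It stood at 824 CPM (7617 reads) at E90, 1309 CPM (4744 reads) at P30d and 516 CPM (5122 reads) at P7y. Its log2 ratio was 0.67 (0.62 to 0.72) from E90 to P30d and -1.34 (-1.40 to -1.29) from P30d to P7y. The same order of libraries was seen as for miR-199a-5p, at a much smaller size. A few reads counted here came from entries named after a hamster miR-199b. The leading read of these entries carries C at positions 10 and 17, as miR-199a-5p does. It differs from miR-199a-5p at position 22, so by sequence it is nearer to miR-199a-5p than to miR-199b-5p. These entries held 3, 151 and 5 reads at E90, P30d and P7y, and made up 3.18% of miR-199b-5p at P30d.

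The 3p strand of miR-199 had to be read as a sum. The authors divided its reads evenly over the 3 hairpins, so that miR-199a, with 2 loci, got 2011, 4078 and 2039 CPM, and miR-199b got 1001, 2035 and 1017 CPM. Summed, the strand had 27840 reads (3012 CPM) at E90, 22148 (6113 CPM) at P30d and 30321 (3056 CPM) at P7y. The log2 ratio of the sum was 1.02 (0.996 to 1.05) from E90 to P30d, -1.00005 (-1.03 to -0.97) from P30d to P7y and 0.02 (-0.00 to 0.04) from E90 to P7y. By CPM, the E90 and P7y libraries thus held the strand at levels that differed by less than counting error. P30d was about 2-fold above both. These relations rest on the scaling: by 2 other scalings described below, TMM and DESeq2, P7y lay above E90 and slightly above P30d.

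miR-214-3p was the main strand of miR-214. It had 886 reads at E90, 95.9 CPM (89.6 to 102), 1806 reads at P30d, 498 CPM (476 to 522), and 1770 reads at P7y, 178 CPM (170 to 187). P30d was 5.20-fold above E90 (log2 ratio 2.38, 2.26 to 2.50) and 2.79-fold above P7y (log2 ratio, P7y over P30d, -1.48, -1.58 to -1.39). It stood higher at P7y than at E90, with a log2 ratio of 0.90 (0.78 to 1.01). That ratio was 0.57 over reads without a mismatch and 0.051 over the leading read alone. The minor strand miR-214-5p had 75, 109 and 82 reads, which is 8.11, 30.1 and 8.27 CPM. Its interval at P30d, 24.7 to 36.3 CPM, lay above those of E90 (6.38 to 10.17) and P7y (6.57 to 10.3), which overlapped.

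**Figure D1:**
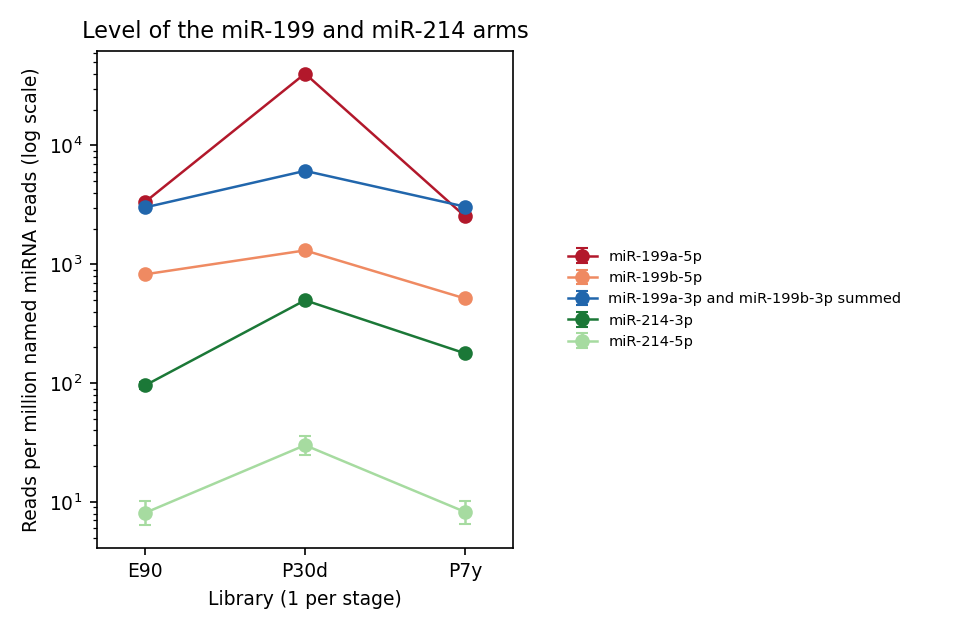
CPM on a log axis for each member arm in the E90, P30d and P7y libraries, with the 3p strands of miR-199a and miR-199b summed. Points are single libraries joined by lines to guide the eye and bars are 95% counting intervals; every arm is highest at P30d, and miR-199a-5p alone reaches 40212 CPM.

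A ratio of 2-fold or more whose interval excluded equality counted as a call, higher or lower. From E90 to P30d, 5 of 6 member arms were called higher and none lower, where 33.5% of the 328 miRNAs were higher and 35.4% lower. miR-199b-5p was the arm not called. miR-199a-3p and miR-199b-3p are 1 sequence with divided reads, so they are not separate measurements in the counts and medians of member arms here and below. The count was 3 with DESeq2 size factors, with predicted hairpins in the total and with reads without a mismatch only, because the strand shared by miR-199a-3p and miR-199b-3p then missed the bound. The median log2 ratio of the member arms was 1.46, against -0.11 over all 328. From P30d to P7y, 5 of 6 were called lower and none higher, where 55.5% of all were lower and 13.4% higher. The median was -1.41 for the member arms and -1.34 for all, so the members as a group lay close to the background there. The arm not called was miR-199a-3p, whose log2 ratio of -0.99988 missed the 2-fold bound, while the identical strand counted as miR-199b-3p passed it at -1.00039.

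Between the end points, E90 and P7y, none of the 6 member arms was called in either direction, where 11.9% of all miRNAs were higher and 50.3% lower. The median was 0.02 for the member arms and -1.01 for all miRNAs. That median shift depends on the scaling. With TMM factors, which assume that most miRNAs are level, 4 member arms were called higher and none lower, and the median-of-ratios factors of DESeq2 gave the same counts. These 4 were both strands of miR-214 and the shared 3p strand of miR-199, counted under both its names. Of them miR-214-3p was the farthest out, with a log2 ratio of 2.09 by TMM and 1.99 by DESeq2. By the same factors miR-199a-5p and miR-199b-5p turned from lower to higher between E90 and P7y, without a call. Whether member levels were equal at the end points therefore rests on the scaling.

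The scaling bore on P30d to P7y too. TMM moved the log2 ratios of all miRNAs by 0.17 from E90 to P30d, by 1.03 from P30d to P7y and by 1.19 from E90 to P7y, and the DESeq2 factors moved them by -0.06, 1.15 and 1.09. By either, 1 member arm was called lower from P30d to P7y, miR-199a-5p. The 3p strands of miR-199 then turned to slightly higher at P7y, by 0.03 with TMM and 0.15 with DESeq2. Set against the median over all 328, the log2 ratio from P30d to P7y was -2.65 for miR-199a-5p, -0.52 for miR-214-5p, -0.14 for miR-214-3p, -0.00 for miR-199b-5p and 0.34 for the summed 3p strand. miR-199a-5p was thus the arm farthest below the median of all miRNAs.

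**Figure D2:**
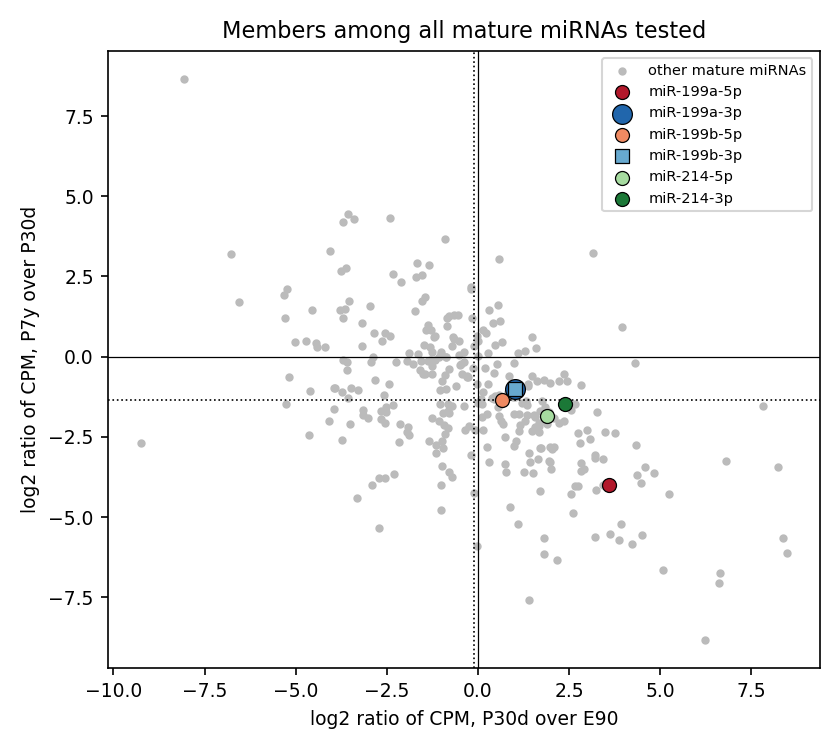
Each point is 1 of 328 mature miRNAs, with the log2 ratio of CPM from E90 to P30d on the x axis and from P30d to P7y on the y axis; both ratios use the P30d library, so an error there moves a point along both. Dotted lines mark the medians, -0.11 and -1.34, and coloured points the member arms: miR-199a-5p lies at 3.59 and -3.99, apart from the other member arms.

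Ratios between members within a library do not depend on the scaling. The share of miR-199b in the miR-199-5p reads was 19.7% (19.4 to 20.1) at E90, 3.15% (3.07 to 3.24) at P30d and 16.9% (16.5 to 17.3) at P7y. In other words, 4.06 reads of miR-199a-5p were found for each read of miR-199b-5p at E90, against 30.7 at P30d and 4.92 at P7y. The log2 change of miR-199a-5p exceeded that of miR-199b-5p by 2.92 (2.86 to 2.97) from E90 to P30d, and differed from it by -2.64 (-2.70 to -2.58) from P30d to P7y. From E90 to P7y the difference was 0.27 (0.22 to 0.33). Both strands carry the same seed, so most of the reads with this seed were miR-199a-5p in every library.

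**Figure D3:**
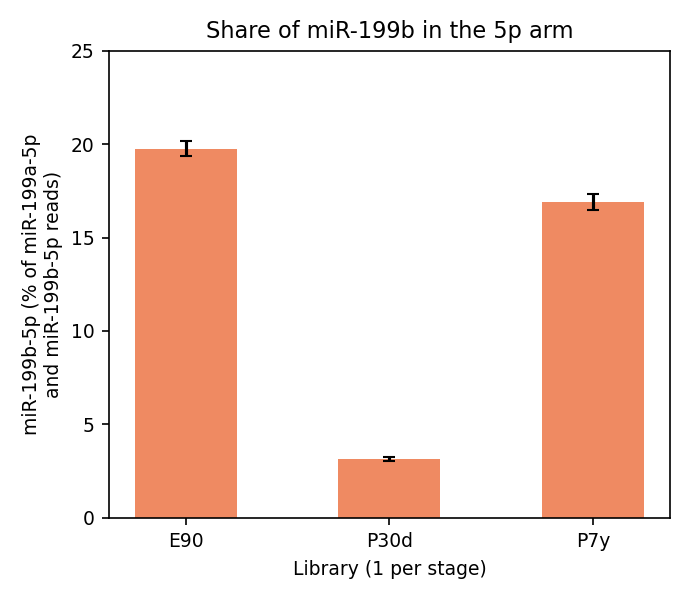
Share of miR-199b-5p among all reads of miR-199a-5p and miR-199b-5p, in percent, in the E90, P30d and P7y libraries. Bars are single libraries with 95% Clopper-Pearson intervals; the P30d bar, 3.15%, is far below 19.7% at E90 and 16.9% at P7y.

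miR-199a-5p and miR-214-3p, which can come from the same DNM3OS transcript, did not keep a fixed ratio. There were 34.9 reads of miR-199a-5p per read of miR-214-3p at E90, against 80.7 at P30d and 14.2 at P7y. The log2 change of miR-199a-5p exceeded that of miR-214-3p by 1.21 (1.09 to 1.33) from E90 to P30d and differed from it by -2.50 (-2.60 to -2.41) from P30d to P7y. With the other arm of miR-199, P30d was the lowest and not the highest library: 31.4, 12.3 and 17.1 reads of the 3p strand were found per read of miR-214-3p. The change of miR-214-3p exceeded that of the 3p strand by 1.36 (1.24 to 1.48) from E90 to P30d, with a difference of -0.48 from P30d to P7y. miR-199b-5p and miR-214-3p, which lie on different chromosomes, differed by -1.71 (-1.84 to -1.58) from E90 to P30d, by 0.14 (0.03 to 0.25) from P30d to P7y and by -1.57 (-1.70 to -1.44) from E90 to P7y.

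The 5p and 3p arms were then compared at each stage. In miR-199a the 5p arm made up 62.5% of reads (62.1 to 62.9) at E90, 90.8% (90.6 to 90.9) at P30d and 55.5% (55.0 to 55.9) at P7y. That value rests on the even division of 3p reads. With all 3p reads set against miR-199a-5p alone, the 5p share was 52.6%, 86.8% and 45.4%. This count keeps the 3p reads of miR-199b and leaves out its 5p reads. It is thus a lower bound for miR-199a, and cannot say which arm led at P7y. With miR-199a and miR-199b summed, which needs no division, it was 58.1% (57.7 to 58.5), 87.2% (87.0 to 87.3) and 49.99% (49.6 to 50.4). In each of these 3 counts the 5p arm was the larger by far at P30d, and the arms were closer to equal at the other stages.

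The log2 of 5p over 3p for the sum stood at 0.47 at E90, reached 2.76 at P30d and was -0.00 at P7y. The differences were 2.29 (2.26 to 2.32) from E90 to P30d, -2.76 (-2.80 to -2.73) from P30d to P7y and -0.47 from E90 to P7y. For miR-199a taken alone they were 2.57 (2.53 to 2.60), -2.99 (-3.02 to -2.95) and -0.42. The values of miR-199b taken alone were 45.2%, 39.2% and 33.7% of reads in the 5p arm, and these too rest on the division of the 3p reads. They stood lower at each later stage, while the sum of both members peaked towards 5p at P30d.

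In miR-214 the 3p arm led throughout. The 5p arm was 7.80% of reads (6.19 to 9.68) at E90, 5.69% (4.70 to 6.83) at P30d and 4.43% (3.54 to 5.47) at P7y, or 11.8, 16.6 and 21.6 reads of 3p for each read of 5p. The log2 balance differed by -0.49 (-0.94 to -0.03) from E90 to P30d, by -0.38 (-0.82 to 0.06) from P30d to P7y and by -0.87 (-1.35 to -0.38) from E90 to P7y. These intervals are wide, since the 5p arm had at most 109 reads in a library. The second step was within counting error.

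**Figure D4:**
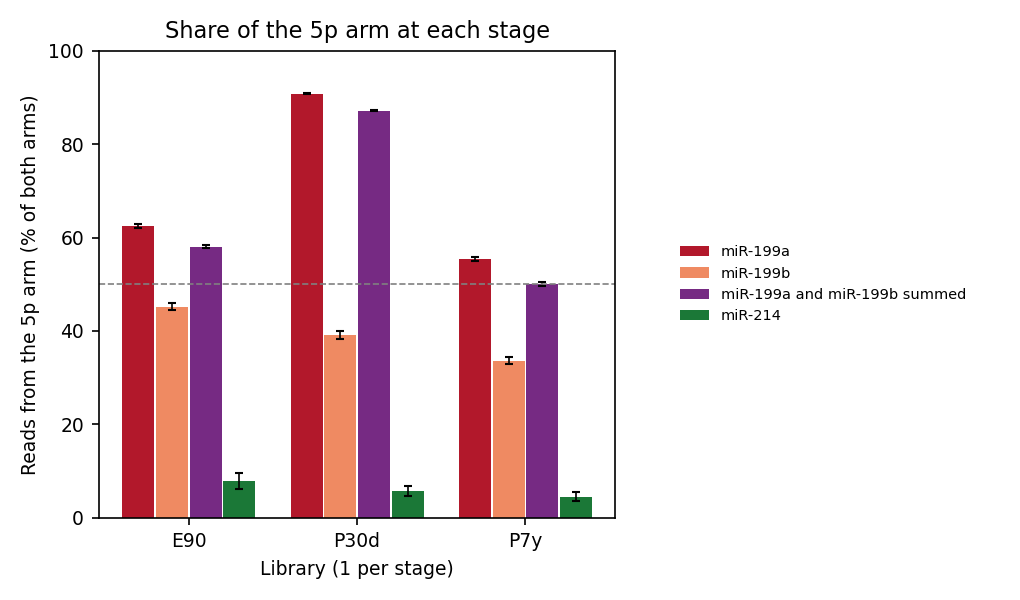
Share of reads from the 5p arm, in percent of both arms, for miR-199a, miR-199b, their sum and miR-214 in the E90, P30d and P7y libraries, with 95% Clopper-Pearson intervals and a dashed line at equal arms. The sum of miR-199 stands at 58.1%, 87.2% and 49.99%, while miR-214 stays below 8% in all 3; the bars of miR-199a and miR-199b rest on 3p reads divided among hairpins.

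Shifts of this size were common in these libraries. Of 194 hairpins that had 50 reads or more in every library, 20.6% shifted towards 5p by 2-fold or more from E90 to P30d and 35.6% towards 3p, and of the 3 members 1, miR-199a, shifted towards 5p. From P30d to P7y, 32.5% shifted towards 5p and 27.3% towards 3p, and again 1 of 3, miR-199a, shifted, towards 3p. From E90 to P7y the shares were 18.0% and 26.3%, and no member shifted. The median absolute difference of the 194 hairpins was 1.90, 2.01 and 1.21 on the log2 scale. By absolute difference miR-199a was 68th from E90 to P30d, 58th from P30d to P7y and 158th from E90 to P7y.

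The reads themselves differed in quality between member arms. A mismatch was carried by 39.7%, 31.3% and 53.7% of miR-214-3p reads at E90, P30d and P7y, against a median of 12.6%, 15.4% and 17.8% over miRNAs with 50 reads or more. miR-199b-5p had 5.16%, 13.4% and 6.19%, and miR-199a-5p 16.97%, 8.68% and 18.1%. The mismatch share was therefore lowest at P30d for miR-199a-5p and highest at P30d for miR-199b-5p, the opposite of each other. The leading read held 74.4% of miR-199a-5p reads at P30d, against 55.3% at E90 and 41.4% at P7y. It held 54.0% of miR-199b-5p reads at P30d, against 80.0% at E90 and 73.7% at P7y. For miR-214-3p it held 33.2%, 34.2% and 17.9%. Counted by reads without a mismatch or by the leading read alone, miR-199a-5p and miR-214-3p kept their directions and calls from E90 to P30d and from P30d to P7y. By the leading read alone, the log2 ratio of miR-199b-5p went from 0.67 to 0.070 from E90 to P30d, and from -1.34 to -0.81, without a call, from P30d to P7y.

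The 3 miRNAs whose 2 successive log2 ratios lay nearest to those of miR-199a-5p were miR-192-3p, miR-374a-5p and miR-5105-5p. Likeness was the Euclidean distance over the 3 libraries, and was 0.09, 0.15 and 0.39. miR-192-3p, the minor strand of the liver and gut miRNA miR-192, stood at 23.9, 274 and 18.0 CPM at E90, P30d and P7y. miR-374a-5p stood at 606, 6539 and 410.1 CPM and miR-5105-5p at 62.9, 593 and 33.0 CPM. The other member arms were not near: of 327 miRNAs ordered by this distance, miR-214-5p was 59th, miR-214-3p 63rd and the other 3 arms 110th to 112th.

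Other miRNAs of smooth muscle and fibroblasts summed to 9.52% of named reads at E90, to 4.02% at P30d and to 13.4% at P7y, with their lowest sum at the stage where the members were highest. Of 11 arms tested in that list, 2 were higher and 4 lower from E90 to P30d, where 33.5% of all miRNAs were higher and 35.4% lower. The median log2 ratio was -0.29, against -0.11 over all. Between P30d and P7y 4 were higher and 2 lower, where 13.4% and 55.5% of all were, with a median of 0.49 against -1.34. From E90 to P7y 3 were higher and 3 lower, where 11.9% and 50.3% of all were, with a median of 0.39 against -1.01. miR-143-3p, which is abundant in smooth muscle, stood at 51123, 17730.4 and 102623 CPM and its cluster partner miR-145-5p at 1189, 1043 and 4688 CPM. miR-152-3p stood at 26956, 2063 and 4751 CPM. Not every arm of the list was lowest at P30d: miR-21-5p stood at 14245, 17052 and 18625 CPM and miR-145-3p at 409, 869 and 940 CPM. Of these arms miR-143-3p was the most abundant in each library, so it weighed most in the sum. In these libraries miR-143-3p was lowest at P30d, where miR-199a-5p was highest.

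Among miRNAs that published work reports as raised in liver fibrosis, 9 arms were tested. From E90 to P30d 2 were higher and 1 lower, with a median of 0.55, where 33.5% of all miRNAs were higher and 35.4% lower. Between P30d and P7y none was higher and 7 were lower, with a median of -1.52, where 13.4% of all were higher and 55.5% lower and the median was -1.34. From E90 to P7y 1 was higher and 5 were lower, where 11.9% and 50.3% of all were, and the median of -1.01 was that of all miRNAs. miR-27b-3p stood at 16288, 25661 and 10613 CPM and miR-27a-3p at 374, 2384 and 849.9 CPM, both with a peak at P30d as in the member arms. miR-21-5p, which is induced in many fibrotic tissues, stood at 14245, 17052 and 18625 CPM, and no pair of its levels was 2-fold apart. miR-221-3p stood at 3567, 1489 and 394 CPM, lower at each stage than at the one before.

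Of the miRNAs reported to restrain fibrosis, 15 arms were tested. The list holds miR-194, but entries named miR-194a and miR-194b were not counted in it. The counts and medians given here for the list therefore leave them out. From E90 to P30d 9 were higher and 2 lower, with a median of 1.38, beside the same 33.5% and 35.4% of all miRNAs. From P30d to P7y none was higher and 8 were lower, with a median of -1.26, a share lower that is near the 55.5% of all. From E90 to P7y 2 were higher and 7 lower, with a median of -0.29, again a share lower that is near the 50.3% of all. The list holds miR-122-5p, the main hepatocyte miRNA, at 128017, 213802 and 37870 CPM. It also holds miR-29a-3p, a repressor of collagens, at 1312, 2059 and 2815 CPM, and miR-30c-5p at 1748, 5515 and 600.3 CPM. In contrast, miR-30a-5p was lowest at P30d, at 39277, 29878 and 33261 CPM. miR-29c, of the same list, was at 0 in at least 1 library. Of the 2 arms tested among miRNAs linked to TWIST1 or hypoxia, 1 was lower and none higher in each pair of libraries. The medians were -1.58 from E90 to P30d, -0.11 from P30d to P7y and -1.68 from E90 to P7y. Over all miRNAs the medians were -0.11, -1.34 and -1.01 in that order, and 35.4%, 55.5% and 50.3% were lower. The 2 arms were miR-10b-5p, at 1039, 1139.9 and 2021 CPM, and miR-210-3p, the best-known hypoxia miRNA, at 80.8, 8.28 and 4.03 CPM. They went opposite ways in each pair, miR-10b-5p upward without a call, so a median of these 2 arms describes neither.

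Markers of other cells that liver tissue holds also differed between the libraries. Leukocyte miRNAs (miR-142, miR-223 and miR-150) summed to 889 CPM at E90, to 3315 at P30d and to 901 at P7y, but the arms differed. The P30d peak of the sum came from miR-142-5p, at 374, 2956 and 609 CPM, while miR-223-3p was lowest at P30d, at 296, 50.2 and 83.1 CPM. miR-142-3p stood at 195, 190 and 105 CPM and miR-150-5p at 5.95, 118 and 103 CPM. Hepatocyte miRNAs, without miR-194a and miR-194b, summed to 313957, 367096 and 288733 CPM, but their main arms moved apart. Of these, miR-122-5p was highest at P30d, at 128017, 213802 and 37870 CPM. Both miR-192-5p, at 109467, 109310 and 154836 CPM, and miR-148a-3p, at 75920, 41821 and 95666 CPM, were highest at P7y. The endothelial miR-126 summed to 13297, 11884 and 13568 CPM. Its arms moved apart, with miR-126-3p at 11832, 7426 and 10951 CPM and miR-126-5p at 1465, 4458 and 2616 CPM. Erythroid miRNAs (miR-451, miR-144 and miR-486) summed to 7242, 3034 and 1821 CPM. Of their 4 tested arms, 3 were called lower from E90 to P30d and none higher. The fourth, miR-144-3p, stood at 977.8 CPM at E90 and 1194.6 CPM at P30d. Epithelial miRNAs (miR-200 family) summed to 760.2, 359.6 and 224.0 CPM. Both sums were lowest at P7y. Of 4 epithelial arms tested, 2 were called higher from E90 to P30d and 2 lower. Those higher were miR-200a-3p, at 86.1, 186.9 and 37.6 CPM, and miR-141-3p, at 16.3, 39.2 and 3.23 CPM. The main arm, miR-200b-3p, was lowest at P30d, at 613.4, 114.8 and 178.2 CPM. The smooth muscle markers miR-143 and miR-145 summed to 52852, 19732 and 108377 CPM. Striated muscle miRNAs stood at 17.9, 43.3 and 31.5 CPM, with miR-206 at 0 in at least 1 library. The part of any of these in the levels of the members was not tested.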

How the data were processed

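Small RNA of pig liver was read in 1 library per stage (E90, P30d and P7y), grouped by the stage in the labels. The members and lists were chosen with earlier results of these data known. Per the labels, RNA with an integrity number above 6.0 was enriched for small RNA from about 15 µg, and fragments of 14 to 40 nt were sequenced. The authors aligned reads with miRBase hairpins of pig and further mammals, per the file headers. The deposited reads per arm are expected counts, because a read that fits several hairpins is divided among them; they were summed per miRNA and arm and rounded to whole numbers. The deposited copies of the representative read are counts. The submitters' processing notes name the build Sscrofa10.2. For the miRBase release, aligner and trimming, nothing was given in the sources used here. Symbols and neighbouring genes come from RefSeq's Sscrofa11.1, matched by name for all 4 loci.

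Names were stripped of species and copy number. Of these, 11 were merged into others, where 1 leading read, at least 18 nt long, made up over 50% of each. Of 994 mature miRNAs with a read, 328 had a mean of 10 CPM or more. CPM were per 1000000 reads of named hairpins. Log2 ratios have exact conditional binomial 95% intervals, shares Clopper-Pearson intervals, and a call needed a log2 ratio of 1 or more, with the interval off 0; a count of 0 was set to 3 reads. Arm balance added 0.5 to each arm and needed 50 reads per library. Named miRNAs were the members, the 3 nearest in pattern to the most abundant member arm, and up to 4 arms of each list by mean CPM. The name miR-194 in a list did not take in miR-194a or miR-194b. The lists were smooth muscle and fibroblast, raised in fibrosis, restraining fibrosis, TWIST1 or hypoxia, and markers of hepatocytes, endothelium, leukocytes, erythroid cells, smooth muscle, epithelium and striated muscle; some share miRNAs.

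Alternatives were TMM (edgeR 4.0.16), DESeq2 1.42.0 size factors, other totals, filters and read classes, and summing miR-199a with miR-199b. Software was R 4.3.3, Python 3.11.15, SciPy 1.17.1, NumPy 2.4.6, matplotlib 3.10.9 and pandas 2.3.3. The calls were tested on simulated Poisson counts, with 200 of 328 miRNAs changed. The simulation held counting error only, with no variation between animals or libraries and no scaling error. It therefore cannot say how far calls between single libraries would hold in other animals. Of 3-fold changes, 100.0% were recovered from E90 to P30d, 99.0% from P30d to P7y and 100.0% from E90 to P7y, and of 8-fold changes 100.0% in each, with 0.0% of unchanged miRNAs called.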

Additional observations from a re-analysis of the deposited data

Results flagged for a closer look

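Entries named miR-199c, a cattle name outside the 3 members, held 14 reads at E90, 32 reads at P30d and 18 reads at P7y. They were looked at again because each number is above the 3 reads that a count of 0 allows, in entries that no comparison above uses. All were 3p reads, and their numbers are small beside the 27840, 22148 and 30321 reads of the miR-199-3p strand.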

How the results depend on the processing

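Of 138 log2 ratios of member arms under the alternatives, 95 kept direction and call, 16 lost the call, 13 gained one and 14 changed sign. The shared 3p strand of miR-199 enters these under both its names. Of 66 values of arm balance, 55 kept both, 1 lost its call, 3 gained one and 7 changed sign. The 12 counts of hairpins with a shifted balance stayed within 1.5 times. The log2 ratio of miR-199a-5p ran from 3.31 to 3.98 from E90 to P30d and from -4.75 to -2.83 from P30d to P7y, and stayed called in every alternative run. No paired analysis was possible because each stage has 1 library, and no library could be left out. The depth limits miR-214-5p most, with 75 to 109 reads.

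With TMM factors, E90 to P7y turned to 0.79 for miR-199a-5p and 0.52 for miR-199b-5p, and reached a call at 1.21 for miR-199a-3p, 1.22 for miR-199b-3p, 1.22 for miR-214-5p and 2.09 for miR-214-3p. From P30d to P7y miR-199a-3p turned to 0.0281 and miR-199b-3p to 0.0276, and miR-199b-5p (-0.31), miR-214-5p (-0.84) and miR-214-3p (-0.45) lost their calls. Of all miRNAs, 91 were higher and 112 lower from P30d to P7y, and 98 and 100 from E90 to P7y. As reported, they were 44 and 182, and 39 and 165.

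With DESeq2 size factors, E90 to P7y turned to 0.70 for miR-199a-5p and 0.42 for miR-199b-5p, and reached a call at 1.12 for miR-199a-3p, 1.12 for miR-199b-3p, 1.12 for miR-214-5p and 1.99 for miR-214-3p. From P30d to P7y miR-199a-3p and miR-199b-3p turned to 0.15, and miR-199b-5p (-0.19), miR-214-5p (-0.71) and miR-214-3p (-0.33) lost their calls. From E90 to P30d miR-199a-3p (0.96) and miR-199b-3p (0.97) lost theirs. Of all miRNAs, 97 were higher and 104 lower from P30d to P7y, and 95 and 107 from E90 to P7y.

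With no filter, 196 miRNAs were higher and 202 lower from E90 to P30d, 68 and 342 from P30d to P7y, and 90 and 342 from E90 to P7y, with more miRNAs tested. Where the mean had to reach 100 CPM, over a shorter list, 60 were higher and 59 lower from E90 to P30d, 93 were lower from P30d to P7y, and 21 were higher and 82 lower from E90 to P7y.

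Without the 5 most abundant miRNAs in the total, miR-199b-3p lost its call from P30d to P7y (-0.68) and miR-214-3p reached one from E90 to P7y (1.22). With predicted hairpins in the total, miR-199a-3p and miR-199b-3p lost theirs from E90 to P30d (both 0.99), as did miR-199b-3p from P30d to P7y (-0.94), and the members' share of reads was 0.72% at E90 and 4.62% at P30d. With pig hairpins only, the share was 0.76%, 5.06% and 0.64% at E90, P30d and P7y, miR-199a-3p reached a call from P30d to P7y (-1.04), and miR-199a-3p and miR-199b-3p turned to -0.0033 and -0.0024 from E90 to P7y.

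With reads without a mismatch only, the share was 0.78%, 5.09% and 0.67%. miR-199a-3p and miR-199b-3p lost their calls from E90 to P30d (both 0.96), as did miR-199b-3p from P30d to P7y (-0.95). miR-214-5p turned to -0.52 from E90 to P7y, and the balance of miR-214 shifted by -1.09 from E90 to P7y, now past 2-fold. With the representative read only, miR-199a-3p reached a call from P30d to P7y (-1.57), miR-199b-5p lost its own (-0.81), and from E90 to P7y miR-199a-3p turned to -0.0302, miR-199b-3p to -0.0268 and miR-214-5p to -0.79. The balance of miR-199b turned to 0.76 at E90 and 0.0387 at P7y, with differences of -1.47 from E90 to P30d, now past 2-fold, and 0.76 from P30d to P7y.

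With miR-199a and miR-199b summed, the 3p strand passed the bound from P30d to P7y (-1.00005) and the 5p strand, in place of miR-199b-5p, from E90 to P30d (3.31). The balance in place of miR-199b turned to 0.47 at E90 and 2.76 at P30d and stood at -0.00076 at P7y, where that in place of miR-199a changed sign to the same -0.00076. The differences in place of miR-199b were 2.29 from E90 to P30d and -2.76 from P30d to P7y. Apart from the causes these settings carry by construction, the cause was not tested.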
